A study of Mus musculus with 2 samples.

Results

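The miR-34 family of the mouse adrenal gland is described here through its 3 annotated genes, Mir34a, Mir34b and Mir34c, out of 2202 miRNA genes measured. The genes were selected by symbol in the GENCODE M21 annotation, with their levels in these libraries already known, so those levels and their differences are descriptions that carry no test. The study sequenced small RNA from adrenal glands of male B6CASTF1/J mice, an F1 hybrid strain, at 14 days of age, with no treatment named. It has 1 group of 2 libraries, biological replicates 1 and 2, from separate biosamples that each name 3 males and refer to the same donor record. The labels do not say whether a library pools animals, and with no second condition the only comparison is between the 2 libraries. Replicate 1 held 3024662 counts on the strand of miRNA genes and replicate 2 held 3464837.

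A miRNA is cut from a hairpin precursor and guides silencing of messenger RNAs that pair with its seed, the bases 2 to 8 from its 5′ end. The miR-34 genes are known as direct transcriptional targets of the tumour suppressor p53, and their miRNAs repress genes of cell cycle progression and survival. In mice Mir34a is expressed in many tissues, whereas Mir34b and Mir34c, made from a shared primary transcript, are best known from testis, lung and other sites with ciliated cells. The Mir449 genes are known to carry the same seed and are markers of multiciliated cells.

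The mature sequences are shown because the seed defines the family and because the neighbours Mir34b and Mir34c must differ in sequence to be counted apart. They are from RefSeq on GRCm38.p6 and are written 5′ to 3′ with the seed in capitals. The 5p sequences that share a seed come first.

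miR-34a-5p: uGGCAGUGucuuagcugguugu

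miR-34b-5p: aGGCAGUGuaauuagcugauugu

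miR-449a-5p: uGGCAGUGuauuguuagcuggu

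miR-449c-5p: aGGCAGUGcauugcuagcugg

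The 3p sequences of the 3 family genes fall into a group of 2 and a single one.

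miR-34b-3p: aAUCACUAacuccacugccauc

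miR-34c-3p: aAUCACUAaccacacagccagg

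miR-34a-3p: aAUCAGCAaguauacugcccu

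Among 1738 mature sequences in the RefSeq table, the seed GGCAGUG was found in 4, from Mir34a, Mir34b, Mir449a and Mir449c. No sequence of Mir449b was among them, and it is grouped below with the other Mir449 genes by name. The RefSeq table held no entry for the family member miR-34c-5p, so its sequence was not analysed and its absence from this seed group is not a result. The 5p sequences of Mir34b and Mir34c could not be compared, and how far they differ is not shown here. The seed AUCACUA was found in 2, from Mir34b and Mir34c, and AUCAGCA only in miR-34a-3p. Counted from 1 at the 5′ end, miR-34b-3p and miR-34c-3p differed at 5 positions, as U11C, C12A, U16A, U21G and C22G. miR-34a-5p and miR-449a-5p, both 22 bases long, differed at 7 positions, all outside the seed. The deposited counts are per hairpin, so the 5p and 3p arms of a gene were not separated.

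Positions are on mm10. Mir34a lies on chromosome 4 from 150068454 to 150068555, on the plus strand. The last 17 bases of its hairpin overlap an exon of Gm37795, an annotated transcript of uncertain status on the same strand, which begins after the 3p sequence ends at 150068537. The nearest protein-coding gene at higher coordinates is Gpr157, 18809 bases away.

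Mir34c lies on chromosome 9 from 51103034 to 51103110 and Mir34b from 51103562 to 51103645, both on the minus strand with 451 bases between them. In GENCODE M21 both lie opposite an intron of Btg4, a gene on the plus strand known for its role in clearing maternal mRNA. The nearest gene on their own strand, at lower coordinates, is 4833427G06Rik, 955 bases from Mir34c. The RefSeq record of that gene, named Hoatz and known for a role in cilia, extends to 51105834 and covers both hairpins.

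Mir34a was counted 1855 times in replicate 1 and 999 times in replicate 2. Levels are in CPM, the counts of a gene for every 1000000 miRNA counts of its library. The level of Mir34a was 613 CPM (95% interval 586 to 642) in replicate 1. In replicate 2 it was 288 CPM (271 to 307). Intervals for levels are exact Clopper-Pearson intervals and cover counting error only. The mean was 451 ± 230 CPM (SD, n = 2). By mean level Mir34a stood in place 119 of 2202 genes, above 67.3% of the 364 detected genes, those with at least 2 CPM in each library.

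Mir34c, with 2174 and 978 counts, was at 719 CPM (689 to 750) in replicate 1 and 282 CPM (265 to 301) in replicate 2. Its mean was 501 ± 309 CPM (SD, n = 2), place 110 by mean level. Mir34a and Mir34c were therefore at similar levels, and their means differed by less than the spread between the libraries. Within replicate 1 there were 1.17 Mir34c counts for each Mir34a count (exact conditional interval 1.10 to 1.25). In replicate 2 the ratio was 0.979 (0.895 to 1.07), an interval that includes equal counts.

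Mir34b was the low member. It was counted 51 times in replicate 1, or 16.9 CPM (12.6 to 22.2), and 102 times in replicate 2, or 29.4 CPM (24.0 to 35.7). Its mean was 23.2 ± 8.89 CPM (SD, n = 2), place 261 by mean level and above 28.3% of the detected genes. In each library it lay below Mir34a and Mir34c by more than their intervals. Small RNA reads span the mature miRNA, so counts were not divided by hairpin length when genes were compared.

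**Figure D1:**
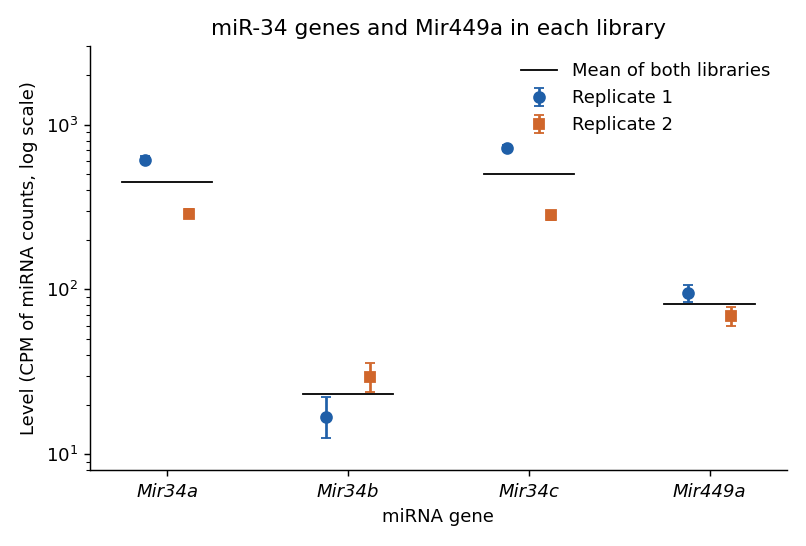
Level of the 3 miR-34 genes and of Mir449a in each library, in CPM of miRNA counts on a log axis, with exact 95% intervals for counting error and a line at the mean. Mir34a and Mir34c are lower in replicate 2 (288 and 282 CPM) than in replicate 1 (613 and 719 CPM), while Mir34b is higher (29.4 against 16.9 CPM).

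Together the 3 genes held 0.135% of miRNA counts in replicate 1 and 0.0600% in replicate 2, or 1349 and 600.03 CPM. The family mean was 974 ± 530 CPM (SD, n = 2). The Mir34a share of family counts was 45.5% (43.9 to 47.0) in replicate 1 and 48.1% (45.9 to 50.2) in replicate 2. Mir34c made up 53.3% (51.7 to 54.8) and 47.0% (44.9 to 49.2). The share of Mir34b was 1.25% (0.932 to 1.64) in replicate 1 and 4.91% (4.02 to 5.92) in replicate 2. Nearly all family counts in both libraries thus came from Mir34a and Mir34c, in similar parts.

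Of the 3 Mir449 genes, only Mir449a had counts. Its hairpin spans chromosome 13 from 113037534 to 113037624, within an intron of Cdc20b on the same strand, and it stood at 94.6 CPM (83.9 to 106) in replicate 1 and 68.7 CPM (60.2 to 78.0) in replicate 2. Mir449b and Mir449c had 0 counts in both libraries, with exact upper limits of 1.22 CPM in replicate 1 and 1.06 CPM in replicate 2. The limit of 3 counts used below stands at 0.992 CPM in replicate 1 and 0.866 CPM in replicate 2. Mir449a exceeded Mir34b in both libraries. Of the counts of all 6 genes, the Mir449 genes gave 6.55% (5.83 to 7.33) in replicate 1. In replicate 2 they gave 10.3% (9.06 to 11.6).

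The 2 libraries differed in all 3 members. Mir34a was 2.13-fold lower in replicate 2 (exact conditional interval 1.97 to 2.30) and Mir34c 2.55-fold lower (2.36 to 2.75), while Mir34b was 1.75-fold higher (1.24 to 2.49). The family sum was 2.25-fold lower in replicate 2 (2.13 to 2.37). Mir449a was 1.38-fold lower (1.16 to 1.64). With 1 library for each replicate number, such ratios compare those libraries, not conditions, and these intervals too hold counting error only.

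Differences of this kind were common across the data. Each gene with at least 10 counts over both libraries was compared by an exact two-sided conditional binomial test with Benjamini-Hochberg adjustment over 413 genes. It called 28.8% of them higher and 26.6% lower in replicate 2. Mir34b was among the 119 higher genes and Mir34a and Mir34c among the 110 lower ones, and nothing is read from these calls. With counts of either strand the split over all genes was 74 higher and 139 lower, and the calls of the 3 members did not change.

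The sizes of these differences are given beside those of other genes. Of 189 genes with a mean of 100 CPM or more, 13 were lower in replicate 2 by 2-fold or more, which is 6.88%, and Mir34a and Mir34c were 2 of the 13. Ordered by fold, Mir34c came in place 7, after Mir196b at 2.56-fold, and Mir34a in place 10, after mmu-mir-3535 at 2.29-fold. Among the 59 tested genes within 2-fold of the mean level of Mir34a, the median log2 ratio of replicate 2 to replicate 1 was -0.002, with 22 genes called higher and 23 lower. Among the 63 within 2-fold of Mir34b it was 0.05, with 12 genes called higher and 11 lower.

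**Figure D2:**
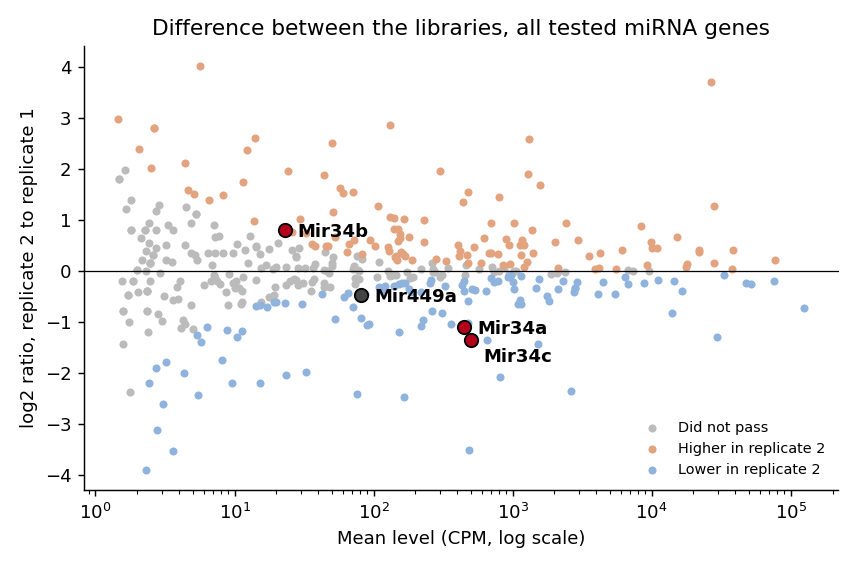
Each point is a tested miRNA gene with counts in both libraries (413 genes), placed by mean level in CPM on a log axis and by the log2 ratio of replicate 2 to replicate 1, and coloured by the exact test. Mir34a and Mir34c lie side by side at mean levels of 451 and 501 CPM with log2 ratios of -1.09 and -1.35, and Mir34b lies above 0 at 0.80.

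Mir34b and Mir34c, which are known to share a primary transcript, differed in opposite directions between the libraries. Replicate 1 held 42.6 Mir34c counts for each Mir34b count (exact conditional interval 32.3 to 57.4) and replicate 2 held 9.59 (7.81 to 11.9). The ratio was thus 4.45-fold lower in replicate 2 (conditional interval 3.12 to 6.40). The ratio of Mir34c to Mir34a, which lie on different chromosomes, was 1.20-fold lower (1.07 to 1.34).

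The pair was set beside other neighbouring miRNA genes. Each pair joined a miRNA gene and the next annotated one on the same strand, so genes with another between them were not compared. There were 74 such pairs separated by fewer than 1000 bases and with at least 10 counts for each gene. Their log2 ratios differed by a median of 0.62 within a pair. For Mir34b and Mir34c the difference was 2.15, the largest of the 74, followed by Mir194-1 and Mir215 at 1.91, where the lower count over both libraries was 16. Of the 74 pairs, the test called the genes of 13 in opposite directions, Mir34b and Mir34c among them, and those of 17 in the same direction. Over all tested genes 28.8% were called higher and 26.6% lower, so both kinds of pair were common and nothing is read from these counts. The pairs are not independent, since genes of a cluster stand in more than 1 pair and 22 pairs lie on chromosome 12. When the gap was widened to 10000 bases, a limit chosen after the data were seen, the pair came in place 2 of 109, behind Mir544 and Mir382 at 3.21.

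In level the pair was less unusual. Mir34c exceeded Mir34b by 21.6-fold in mean CPM, the median pair differed by 5.72-fold, and 19 of the 74 pairs differed by more than Mir34b and Mir34c. Neither hairpin shares a stretch of 20 bases with another annotated miRNA gene. The longest run that each shares with any other annotated miRNA hairpin, the other of the pair included, is 11 bases, and for Mir34a it is 12 bases. Multimapping reads, which are assigned to no gene, made up 27.5% of all reads in replicate 1 and 29.4% in replicate 2. Their part in the Mir34b and Mir34c counts was not tested. GC content of the hairpins was 44.1% for Mir34a, 47.6% for Mir34b and 40.3% for Mir34c, against a median of 50.2% over detected genes.

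**Figure D3:**
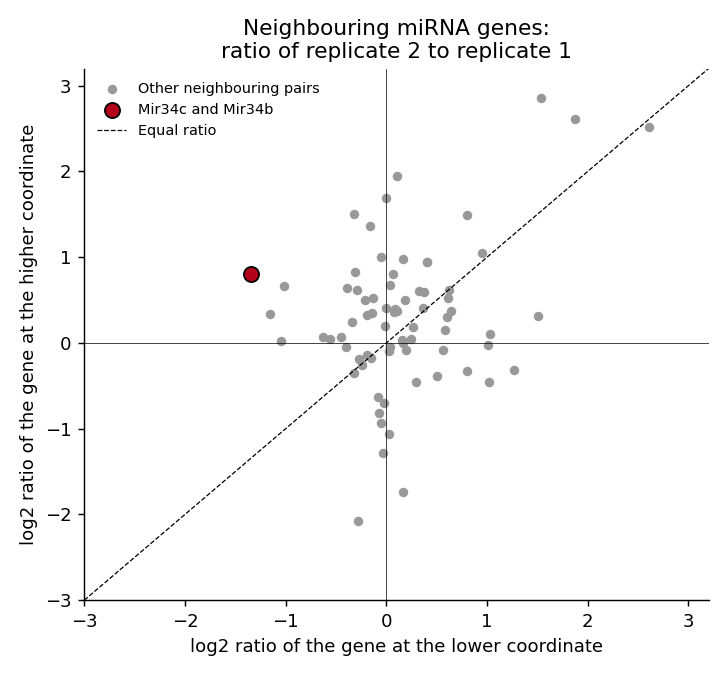
Each point is a pair of neighbouring miRNA genes on 1 strand less than 1000 bases apart, with the log2 ratio of replicate 2 to replicate 1 of the gene at the lower coordinate on the x axis and of its neighbour on the y axis. The dashed line marks equal ratios; Mir34c and Mir34b, at -1.35 and 0.80, lie farthest from it among the 74 pairs.

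The genes closest to each member were found by the distance in log2(CPM + 1) over the 2 libraries. For Mir34a they were Mir221 at 0.13, Mir34c at 0.23 and Mir467d at 0.41. For Mir34c they were Mir34a at 0.23, Mir221 at 0.23 and Mir467d at 0.54. Mir221, which lies on the X chromosome, was at 635 CPM in replicate 1 and 314 CPM in replicate 2. Mir34b stood closest to Mir26a-2 at 0.23, Mir592 at 0.25 and Mir5121 at 0.37. The distance depends on level, so Mir34c, at a far higher level, could not stand near Mir34b, and nothing is read from its absence. With 2 libraries this likeness rests on 2 values a gene.

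Other miRNA genes linked to p53 were examined as a list of 14, all of them measured and 13 detected. They include genes described as p53 targets, such as Mir192, Mir194-2 and Mir215, and Mir15a, Mir16-1 and Mir143, whose miRNAs are linked to p53 through transcription or processing. In replicate 2, 3 of the 14 were higher and 8 lower, and 3 did not pass, beside the 28.8% and 26.6% over all tested genes. The median log2 ratio was -0.25, against 0.03 over all tested genes. The list's summed level was 63539 ± 9550 CPM (SD, n = 2), most of it Mir143, a miRNA of smooth muscle, at 47423 ± 5496 CPM. The family sum of 974 CPM was small beside it.

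Of the lower genes, Mir107, which lies in a Pank gene, fell most, from 4374 to 856 CPM or 5.11-fold (4.91 to 5.32). Mir215 was at 12.6 and 3.75 CPM, 3.35-fold lower (1.74 to 6.85), and Mir200c, an epithelial miRNA, was 1.92-fold lower (1.53 to 2.41). The falls of Mir143, Mir22, Mir16-1, Mir15a and Mir149 were small, between 1.18-fold and 1.28-fold. Mir34a and Mir34c thus lay between Mir200c and Mir215 in size.

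The 3 higher genes were Mir192, Mir194-2 and Mir205. Mir192 and Mir194-2, also known as miRNAs of hepatocytes and gut, lie 115 bases apart on chromosome 19. The hepatocyte miRNA Mir122 was 13.1-fold higher in replicate 2 as well, and any link between these differences was not tested. Mir192 was at 32.1 and 231 CPM, 7.22-fold higher (5.84 to 9.01), and Mir194-2 was 2.91-fold higher (2.35 to 3.63). Mir205, an epithelial miRNA with 5 and 25 counts, was 4.36-fold higher (1.64 to 14.6). Mir145a was at 1064 and 1062 CPM and Mir141 at 9.26 and 8.95 CPM. Mir194-1, at 2.31 and 2.60 CPM, was the third that did not pass.

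Of 3 miRNA genes known to target p53 mRNA, Mir125b-2 was at 137 and 159 CPM, 1.16-fold higher in replicate 2 (1.02 to 1.33). Mir125b-1, at 217 and 223 CPM, did not pass, and Mir504, with 0 counts in replicate 1 and 1 in replicate 2, had too few to test. The genes linked to p53 did not share 1 direction between the libraries, and neither did the miR-34 genes.

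**Figure D4:**
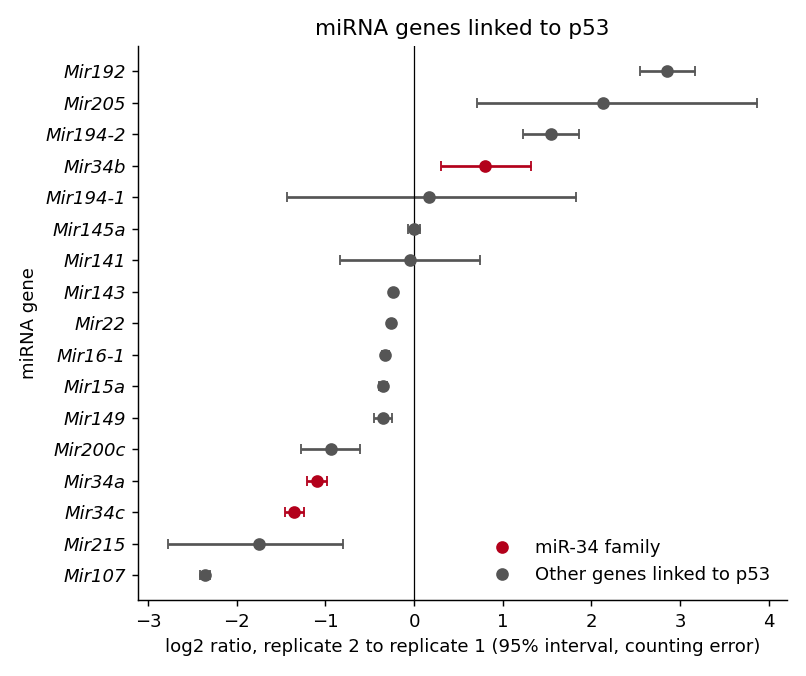
Log2 ratio of replicate 2 to replicate 1 for the 3 miR-34 genes and 14 other miRNA genes linked to p53, with exact 95% intervals for counting error. Values run from -2.35 for Mir107 to 2.85 for Mir192, with Mir34a and Mir34c near the lower end and Mir34b in the upper part.

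Markers of other cell types also differed between the libraries. Mir122, the hepatocyte miRNA, was at 3786 CPM in replicate 1 and 49475 CPM in replicate 2. The summed level of 7 epithelial miRNAs, 5 of them higher and 1 lower, was 814 and 1575 CPM. It was lower in replicate 2 for 3 red blood cell miRNAs, at 43959 and 19202 CPM, with 2 of 3 lower. For 5 white blood cell miRNAs, with 4 lower and 1 higher, it was 4878 and 2610 CPM. Mir126a, of endothelial cells, was at 155646 and 94732 CPM.

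The miRNAs of neuroendocrine cells, the cell class of the adrenal medulla, summed to 31136 and 34282 CPM over 4 genes, of which 2 were higher and 2 did not pass. A list of 6 genes of smooth muscle and mesenchyme summed to 53199 and 45553 CPM, with 1 higher and 2 lower of 5 tested. Of 10 testis miRNAs 8 had no count, and the list summed to 4.96 and 12.4 CPM. Nearly all of that was Mir547, at 4.30 and 12.1 CPM, the only gene of the list tested and called higher in replicate 2. The part of these cell types in the miR-34 differences was not tested. In bulk tissue, fewer cells of a type and less RNA per cell cannot be told apart.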

How the data were processed

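Per the labels, small RNA was sequenced from 2 adrenal gland samples of 1 group. The files deposited hold unnormalized read counts per miRNA gene, 1 file per library, on mm10 with GENCODE M21 per the deposited notes; no aligner or counter is named in the labels or notes. The 3 count columns hold reads of either strand, of the gene's strand and of the opposite strand, judged from the values. The second was used. The 4 summary rows, 57.8% and 59.1% of reads, name no gene and stayed out of totals.

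Counts were scaled to CPM. Intervals are exact at 95%. The exact binomial test used a threshold of 0.05 over genes with at least 10 counts. It was tried on data simulated with counting error only, which cannot show how it behaves with further spread between libraries. The chi-square of the libraries over tested genes, 796 per degree of freedom, showed that they are not 1 library deposited under both numbers. The numbers name separate biosamples, so spread between them may be technical or biological.

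The text names the 3 members, the Mir449 genes, 2 lists of genes linked to p53, marker miRNAs of 9 cell types or tissues, the 3 genes nearest each member in log2(CPM + 1), and any gene with the same seed. Other genes (Mir196b, mmu-mir-3535, and the neighbouring pairs) were named after their values were seen. Members and lists were chosen with earlier results of these data known. Alternatives were either-strand counts, other denominators, edgeR's TMM, DESeq2's size factors, other filters and pseudocounts, and each library alone. The scaling factors were computed in R 4.3.3 with edgeR 4.0.16 and DESeq2 1.42.0. All else used SciPy 1.17.1, pandas 2.3.3 and NumPy 2.4.6 in Python 3.11.15, and matplotlib 3.10.9 for plots.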

Additional observations from a re-analysis of the deposited data

Results flagged for a closer look

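Reads on the strand opposite a member enter only the comparisons made with either-strand counts. Over all miRNA genes the opposite strand held 902536 counts in replicate 1 and 794654 in replicate 2. Mir34b had 4 opposite-strand counts in replicate 2, above the limit of 3 counts, and 0 in replicate 1. Mir34a and Mir34c had 0 in both libraries. The study has no control samples.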

How the results depend on the processing

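Of 30 levels, ratios and shares recomputed with both libraries, 24 stayed within the SD or the interval of the reported value and 6 moved beyond it. None of the 3 member ratios changed direction under the 5 alternatives run for each. With 2 libraries, a library alone always lies within the SD of the mean, so leaving one out says nothing about stability; the values of each library are given above. The number of genes differing between the libraries, 229, ran from 172 to 234 over 7 alternatives, lowest without genes that share a 20-base stretch. With all reads of the file as the denominator, Mir34a was at 188, Mir34b at 9.57 and the family at 407 for every 1000000 reads. Mir34c fell too, from 501 to 209, but stayed within its wide SD of 309 CPM. Levels rose with either-strand counts, to 624 CPM for Mir34a, 31.9 for Mir34b, 695 for Mir34c and 1351 for the family. Those rises count as within the SD only because the SD of 2 libraries is wide. With either-strand counts the list linked to p53 summed to 86923 CPM, the log2 ratios of Mir34a and Mir34c were -1.22 and -1.48 in place of -1.09 and -1.35, and the median log2 ratio over all tested genes shifted to -0.14. The calls of the 3 members were the same under those 7 alternatives, among them TMM, DESeq2 size factors and a total without Mir122. All of these reuse the same 2 libraries, so unchanged calls are no independent evidence and nothing is read from them. Without Mir122 in the total the log2 ratios were -1.02 for Mir34a, 0.87 for Mir34b and -1.28 for Mir34c. Among neighbouring pairs, Mir34b and Mir34c kept the largest difference with either-strand counts and with at least 50 counts for each gene, both chosen after the data were seen, but not with the wider gap given above. No paired analysis was possible because there is 1 group. Mir34b rests on 51 and 102 counts, so its ratio is the least precise of the 3.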
